A study of Mus musculus with 6 samples.

Results

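The eosinophil granule and receptor genes described here are 9 mouse genes, Epx, Prg2, Prg3, Ear1, Ear2, Ear6, Siglecf, Ccr3 and Il5ra, taken as the rows of the count table whose Ensembl identifiers carry those symbols. They are 9 of 45706 rows, and all 9 passed the filter on low counts. Bulk RNA-seq was made from mouse bone marrow. Conditioned medium from clear cell renal cell carcinoma (ccRCC) lines was given to cultures (4 libraries, 1 each for the lines VpR83, VpR99, VpR126 and VpR2020). The comparators are labelled as control medium (2 libraries, replicates 1 and 2). The count table's headers add the tags Ctrl to VpR83, T1 to VpR99 and LT2 to VpR126 and none to VpR2020, whose meaning the sources used here do not give and which may mark a difference between the lines. With 1 library per line, the 4 lines together serve as replicates for conditioned medium, and no test between lines is possible. The count table's headers for the control libraries say only bone marrow and name no medium, and the series' design text speaks of freshly isolated marrow. Whether the controls were cultured is therefore not settled, and time in culture and medium cannot be told apart. The sources used here name no mouse strain, age or culture time and do not say that libraries came from separate animals, so p-values measure only the spread between these libraries, which may be technical.

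Eosinophils form in bone marrow from myeloid precursors under GATA1, GATA2 and C/EBP transcription factors, and interleukin 5 drives their expansion. Their precursors fill granules with cationic proteins, among them eosinophil peroxidase (Epx), the major basic proteins (Prg2 and Prg3) and ribonucleases of the RNase A superfamily (the Ear genes), and transcripts of granule proteins are most abundant in such precursors. Maturing cells carry the interleukin 5 receptor (Il5ra), the eotaxin receptor (Ccr3) and the inhibitory lectin Siglec-F (Siglecf), by which they are recognised. Several members are not specific to eosinophils, since alveolar macrophages carry Siglecf, monocytes express Ear2 and basophils express Prg2.

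RefSeq promoter windows (GRCm38.p6, 250 bases before to 50 after the gene start) were found for 8 of the 9 genes, and Prg2 was not among them. Of the windows, 4 are printed 5′ to 3′ because the Ear genes, which are close copies, differed in their counts, and because Epx anchors the comparison with other genes. Capitals mark GATAA on either strand (TTATC on the reverse), the core of GATA factor sites. The RefSeq starts of Ear1 and Ear6 lie inside the longer GENCODE spans given further on. The windows lie at chr11:87875487-87875786 (minus strand) for Epx, chr14:43819590-43819889 (minus strand) for Ear1, chr14:44102404-44102703 (plus strand) for Ear2 and chr14:51853518-51853817 (plus strand) for Ear6.
Epx: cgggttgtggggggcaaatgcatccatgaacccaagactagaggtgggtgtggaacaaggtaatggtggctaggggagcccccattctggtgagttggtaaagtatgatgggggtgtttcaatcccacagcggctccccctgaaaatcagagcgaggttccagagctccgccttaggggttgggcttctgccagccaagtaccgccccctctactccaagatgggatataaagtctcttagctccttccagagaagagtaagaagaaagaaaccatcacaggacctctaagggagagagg
Ear1: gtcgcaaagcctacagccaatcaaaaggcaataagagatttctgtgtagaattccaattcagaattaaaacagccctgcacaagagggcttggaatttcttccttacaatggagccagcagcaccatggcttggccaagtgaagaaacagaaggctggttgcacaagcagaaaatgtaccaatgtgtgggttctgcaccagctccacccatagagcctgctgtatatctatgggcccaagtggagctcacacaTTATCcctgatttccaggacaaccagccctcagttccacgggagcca
Ear2: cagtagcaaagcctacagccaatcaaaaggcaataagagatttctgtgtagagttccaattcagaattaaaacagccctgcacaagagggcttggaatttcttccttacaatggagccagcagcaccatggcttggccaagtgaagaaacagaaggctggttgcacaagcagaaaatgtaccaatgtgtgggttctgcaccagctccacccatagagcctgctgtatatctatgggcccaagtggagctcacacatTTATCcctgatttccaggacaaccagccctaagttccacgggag
Ear6: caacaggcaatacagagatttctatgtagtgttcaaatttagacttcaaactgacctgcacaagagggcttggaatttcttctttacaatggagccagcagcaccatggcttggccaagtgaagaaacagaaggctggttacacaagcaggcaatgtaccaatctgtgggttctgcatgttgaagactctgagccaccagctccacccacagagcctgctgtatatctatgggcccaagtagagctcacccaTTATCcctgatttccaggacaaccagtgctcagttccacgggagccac

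The letters GATAA or TTATC occur in 7 of the 8 member windows, against 25.4% of all 32851 promoter windows, and the Epx window holds none. Ear1, Ear2 and Ear6 each have a single TTATC just after the gene start, 3, 6 and 2 bases past the first transcribed base. Prg3 has TTATC at both -123 and -111. The C/EBP-like motif TTGCNNAA, on either strand, occurs in 2 of the 8 windows, Ear1 and Ear2, at -92 and -90, and in 10.8% of all windows. The PU.1-like motif GAGGAA or its complement occurs in 3 of the 8, and in 28.3% of all windows, and the TATA box letters TATAAA in 1, the Epx window at -24, and in 13.6% of all. No matches of different motifs overlapped in the member windows, and a match is only a match of letters. The Ear1 and Ear2 windows are 97.0% identical, while those of Ear1 and Ear6 are 80.7% and of Ear2 and Ear6 79.0% identical. Matches in these related windows are not independent. The 7 of 8 and 2 of 8 are thus not counts of separate sites to set against the shares of all windows.

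Library depth was 28055913 (VpR83), 129120559 (VpR99), 25714176 (VpR126) and 19412158 (VpR2020) counts in conditioned medium and 27448621 and 18629708 counts in control replicates 1 and 2. Conditioned medium gave higher calls for 22.5% and lower calls for 19.7% of the 15141 genes that entered the test (edgeR, adjusted p below 0.05), 42.2% in all. The share of calls that were higher depended on the scaling, at 53.3% with TMM, 40.0% by upper quartile and 38.6% by library totals. Those last scalings shifted all genes downward, to a median log2 fold change of -0.22 and -0.26 from -0.01 with TMM. Levels are given as CPM, counts scaled to library size with TMM, a method that equates most genes between libraries.

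**Figure D1:**
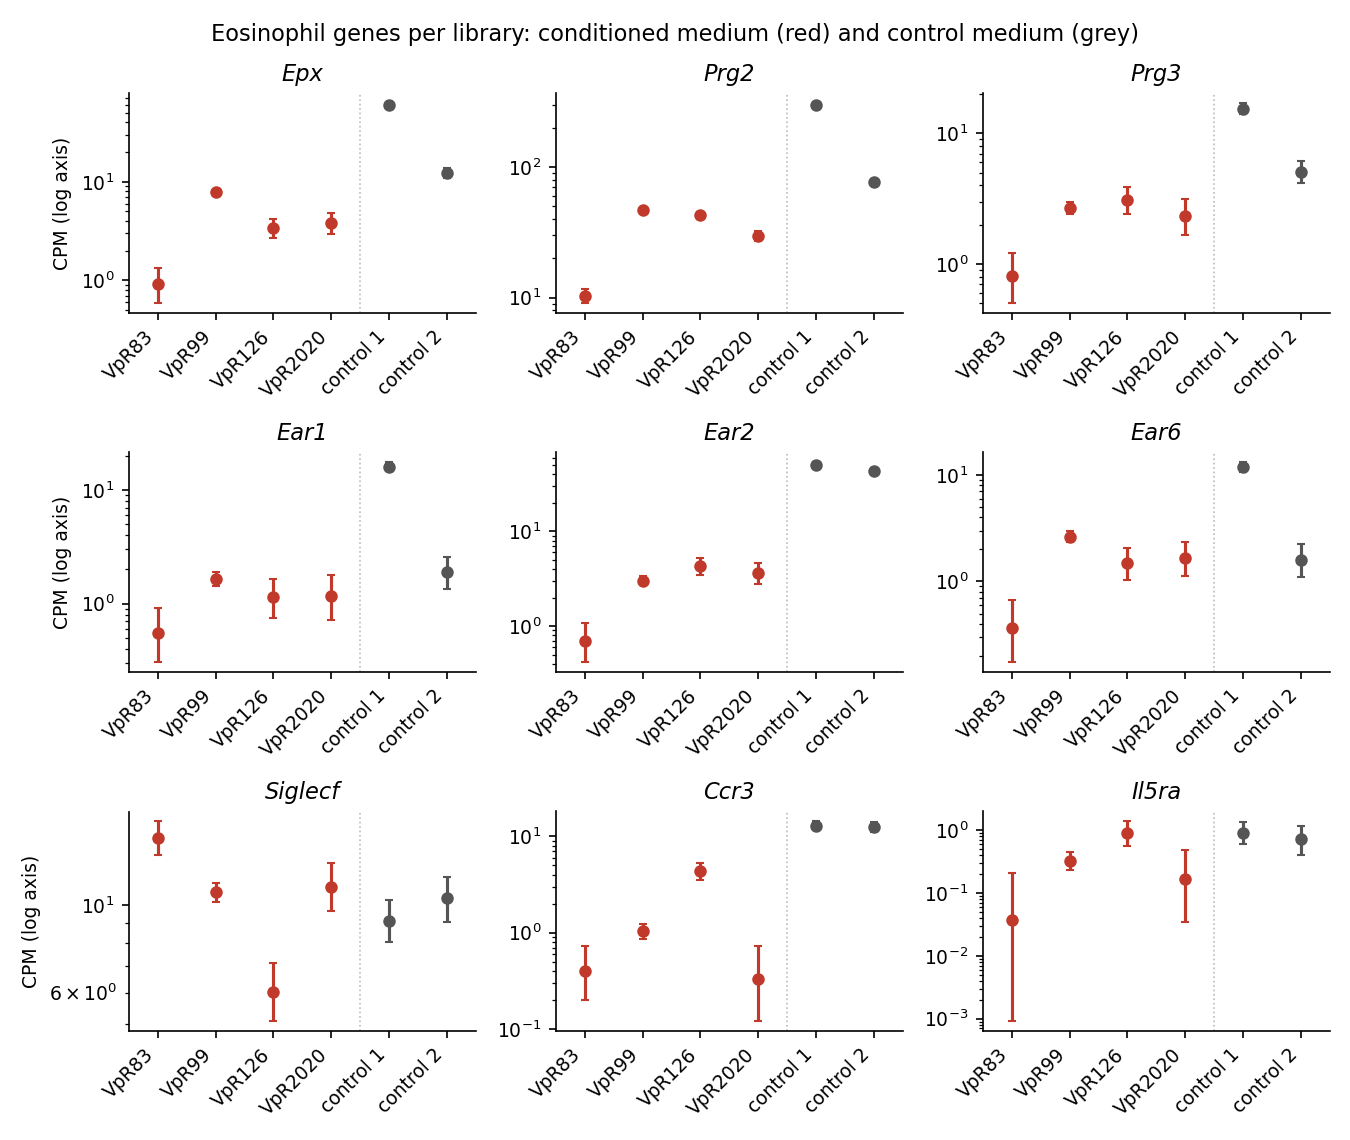
CPM (log axis) of the 9 eosinophil genes in each library, conditioned medium in red on the left and control medium in grey on the right, with bars for the 95% Poisson counting interval. Epx, Prg2, Prg3, Ear1 and Ear6 were several times higher in control replicate 1 than in replicate 2, while Siglecf had 6.04 to 14.8 CPM in conditioned medium and 9.13 and 10.4 CPM in control medium.

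Most eosinophil genes were lower in conditioned medium, but both the size of the difference and the number of calls depended on single libraries. Of the 9 genes, 6 were called lower (Epx, Prg2, Prg3, Ear1, Ear2 and Ccr3; background 19.7%), 0 were called higher (background 22.5%), and Ear6, Siglecf and Il5ra were not called. Only 1 gene, Ear2, was called lower without control replicate 1 or without VpR2020, and 3 were without a filter on low counts. In the same 6, every conditioned library lay below both controls, which held for 33.3% of all genes tested. Of all genes tested, 65.3% had all 4 conditioned libraries on one side of both controls. For Ear1 the gap to control replicate 2 was within counting error under the media of VpR99, VpR126 and VpR2020. The 9 genes had a median of -2.54 on the log2 scale, and all genes one of -0.01. Because bulk RNA was sequenced, fewer eosinophil-lineage cells and less RNA of these genes per cell cannot be told apart.

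Epx, the peroxidase that forms hypohalous acids (chromosome 11, 87864000 to 87875536, GRCm38, as for all coordinates here), had 0.915 CPM under VpR83, 7.84 under VpR99, 3.38 under VpR126 and 3.82 under VpR2020 medium, against 59.5 and 12.2 CPM in control replicates 1 and 2. The groups did not overlap, but replicate 1 was far above replicate 2, and VpR83 was far below the other lines. The means were 3.99 ± 2.87 CPM in conditioned medium (SD, n = 4) and 35.9 ± 33.4 CPM in control medium (SD, n = 2). The log2 fold change was -3.15 ± 0.84 (SE, edgeR adjusted p = 0.025), an 8.86-fold lower level. Without control replicate 1 it was -1.61 (adjusted p = 0.26), without control replicate 2 -3.86 and without VpR99 -3.74. The call was also missed without VpR2020 (adjusted p = 0.062) and without a filter on low counts (0.097), and the adjusted p ranged from 0.00045 to 0.26 over the alternatives.

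Prg2 encodes major basic protein, the toxic cationic protein of the granule core, and Prg3 its homologue (chromosome 2, 84980461 to 84983632 and 84988215 to 84993886). Prg2 had 10.3 CPM under VpR83, 46.6 under VpR99, 42.6 under VpR126 and 29.5 under VpR2020 medium, against 299.6 and 76.7 CPM in control replicates 1 and 2. Prg3 had 0.805, 2.69, 3.08 and 2.32 CPM under the media of VpR83, VpR99, VpR126 and VpR2020, against 15.4 and 5.08 CPM in the controls. Both genes followed Epx, with VpR83 lowest, control replicate 1 highest and no overlap between the groups. The log2 fold changes were -2.54 ± 0.68 for Prg2 and -2.20 ± 0.61 for Prg3 (SE, edgeR adjusted p = 0.025 and 0.028). Without control replicate 1 they were -1.25 and -1.19 (adjusted p = 0.26 and 0.28), and Prg2 was at -3.20 without control replicate 2. Neither passed without VpR2020 (adjusted p = 0.063 for each), nor Prg2 without a low-count filter (0.10), with ranges of 0.00069 to 0.26 for Prg2 and 0.0019 to 0.28 for Prg3 over the alternatives.

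The 3 Ear genes encode secreted ribonucleases related to human eosinophil-derived neurotoxin and eosinophil cationic protein, and lie on chromosome 14 (Ear1 at 43818765 to 43875517, Ear2 at 44102654 to 44103534, Ear6 at 51853699 to 51854643). Ear2 had the most negative fitted fold change of the 9 with all libraries in, though without VpR126 Ccr3 (-4.27) and Ear2 (-4.26) were level. Ear2 levels were 0.696, 3.02, 4.27 and 3.60 CPM under the media of VpR83, VpR99, VpR126 and VpR2020, against 50.8 and 43.4 CPM in the controls. Here the controls lay close together and every conditioned library was far below them. The log2 fold change was -4.03 ± 0.58, a 16.3-fold lower level (SE, edgeR adjusted p = 0.0033). It kept its call in all 13 alternatives that counted Ear2 on its own, with log2 fold changes of -4.28 to -3.70 and adjusted p of 4.2e-10 to 0.030.

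Ear1 had 0.549, 1.66, 1.14 and 1.16 CPM under the media of VpR83, VpR99, VpR126 and VpR2020, against 16.0 and 1.88 CPM in control replicates 1 and 2. Control replicate 2 stood only just above VpR99. The log2 fold change of -2.97 ± 0.79 (SE, edgeR adjusted p = 0.025) was -0.73 without control replicate 1 (adjusted p = 0.46) and -3.79 without control replicate 2. It also missed the threshold without VpR83, without VpR2020 and in limma's voom fit, where the adjusted p were 0.052, 0.059 and 0.078 (range 0.00083 to 0.46).

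Ear6 had 0.366, 2.64, 1.48 and 1.66 CPM under the media of VpR83, VpR99, VpR126 and VpR2020, against 11.8 and 1.60 CPM in the controls. The groups overlapped, since VpR99 and VpR2020 lay above control replicate 2. The log2 fold change was -2.11 ± 0.89 (SE, edgeR adjusted p = 0.098), -0.05 without control replicate 1 and -2.90 without control replicate 2. DESeq2 called it lower (adjusted p = 0.038, range 0.038 to 0.98).

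Because Ear1 and Ear2 transcripts are 96.0% identical in GENCODE M21 and share 23.8% of the 50-base words of Ear1, reads could be split between them or lost in the counting, so their separate values are uncertain. Ear6 shares 1.36% of the words of Ear1. Ear2 also shares 26% of its words with Ear10, which had 0 to 0.0422 CPM in conditioned medium and 0.0667 and 0.0470 CPM in control medium. Summed into 1 feature, Ear1 and Ear2 had 1.245, 4.678, 5.407 and 4.758 CPM under the media of VpR83, VpR99, VpR126 and VpR2020, against 66.75 and 45.25 CPM in the controls. The sum was lower by a log2 fold change of -3.80 (adjusted p = 0.0028, edgeR), and that of all 16 Ear family rows, pseudogenes included, by one of -3.40 (adjusted p = 0.0038).

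Of the receptor genes, Ccr3 was called lower, and Siglecf and Il5ra were not called. Ccr3, the receptor for eotaxins (chromosome 9, 124021972 to 124031689), had 0.403, 1.04, 4.35 and 0.332 CPM under the media of VpR83, VpR99, VpR126 and VpR2020, against 12.8 and 12.5 CPM in control replicates 1 and 2. The controls nearly coincided, and VpR126 stood above the other lines yet well below both. The log2 fold change was -3.05 ± 0.96 (SE, edgeR adjusted p = 0.042). It was -4.27 without VpR126, and the threshold was missed without each other library in turn, with log2 fold changes of -3.06 to -2.72. Those adjusted p were 0.067 without VpR83, 0.084 without VpR99, 0.072 without VpR2020, 0.15 without control replicate 1 and 0.14 without control replicate 2, with 0.10 when no filter was used and a range of 0.0026 to 0.15 over all alternatives.

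Siglecf (chromosome 7, 43351341 to 43359531) had 14.8, 10.8, 6.04 and 11.1 CPM under the media of VpR83, VpR99, VpR126 and VpR2020, against 9.13 and 10.4 CPM in the controls. VpR83, VpR99 and VpR2020 were above both controls and VpR126 was below them. Its log2 fold change was 0.13 ± 0.35 (SE, edgeR adjusted p = 0.78), and it was -0.06 without VpR83. It was -0.08 by upper-quartile scaling and -0.10 by library totals, which lowered the median of all genes by about as much. RLE scaling gave 0.12. Siglecf made up a larger share of the counts of the 9 genes in conditioned medium, with 51.3% under VpR83, 14.1% under VpR99, 8.98% under VpR126 and 20.7% under VpR2020 medium, against 1.92% and 6.32% in the controls.

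Il5ra, the ligand-binding chain of the interleukin 5 receptor (chromosome 6, 106710357 to 106749037), was scarce everywhere. It had 1, 40, 21 and 3 counts under the media of VpR83, VpR99, VpR126 and VpR2020, against 27 and 15 counts in the controls. In CPM these were 0.0366, 0.324, 0.887 and 0.166, against 0.900 and 0.705, so VpR126 lay between the controls and the other lines below them. The log2 fold change was -1.19 ± 0.90 (SE, edgeR adjusted p = 0.32), or -1.93 without VpR126 (adjusted p = 0.061, range 0.061 to 0.61). At such counts the intervals are wide: 0.000927 to 0.204 CPM under VpR83 medium and 0.395 to 1.16 CPM in control replicate 2.

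**Figure D2:**
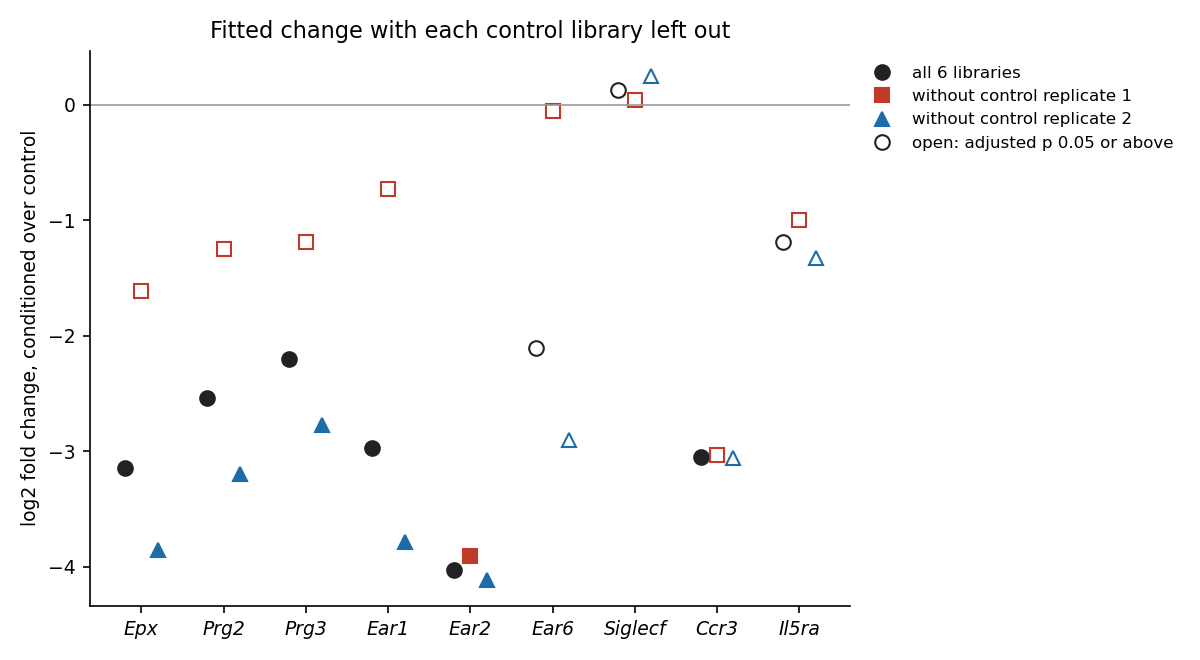
Fitted log2 fold change (conditioned over control) of the 9 genes with all 6 libraries, without control replicate 1 and without control replicate 2, filled where the adjusted p was below 0.05. Ear2 and Ccr3 stayed within -4.12 to -3.91 and -3.06 to -3.03, while Epx, Prg2, Prg3, Ear1 and Ear6 moved towards 0 without control replicate 1.

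The controls divided the 9 genes. Epx was 4.87-fold (95% counting interval 4.27 to 5.57), Prg2 3.91-fold (3.71 to 4.12) and Prg3 3.04-fold (2.46 to 3.78) higher in control replicate 1 than in replicate 2. Ear1 and Ear6 had the widest gaps, with ratios of 8.49 (6.14 to 12.0) and 7.38 (5.19 to 10.8). The other granule ribonuclease, Ear2, had a ratio of 1.17 (1.08 to 1.27), and Ccr3, Siglecf and Il5ra had ratios of 1.03 (0.879 to 1.21), 0.879 (0.734 to 1.05) and 1.28 (0.655 to 2.58). Thus 5 of 9 genes were at least 2-fold higher in replicate 1, against 3.67% of all genes tested (2.15% were at least 2-fold lower) and 8 of 90 tested genes of the other lists described here. This compares 1 library with another and has no replicate check.

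The summed CPM of the basophil and mast cell list in replicate 1 was 1.10 times that in replicate 2. The neutrophil and macrophage lists had ratios of 1.09 and 0.913. The macrophage sum was mostly Lyz2 (7681 and 8476 CPM), and ratios of single macrophage genes ran from 0.844 (Cd68) to 1.38 (Trem2). Of the listed genes, 8 were at least 2-fold higher in replicate 1. Trib1, a pseudokinase gene required for eosinophil identity in mice, was 5.38-fold higher (272 and 50.6 CPM) and Cebpb 2.37-fold (98.9 and 41.8 CPM). The others were the cytokine-induced kinase gene Pim1 (263 and 87.5 CPM), Ccl7, Ccl8, Ltc4s, Il4 and Cd36. Ccl7, Ccl8 and Ltc4s rested on 15, 4 and 5 counts in replicate 1 and 1 count each in replicate 2. Gata1 had 77.5 and 77.8 CPM and Cebpe 134 and 153 CPM in control replicates 1 and 2. The summed markers of these other cell types were thus close to equal between the control libraries, while the genes of the peroxidase, the basic proteins, Ear1 and Ear6 were not. Trib1, Cebpb and Pim1 differed too, so the gap was not limited to granule genes.

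**Figure D3:**
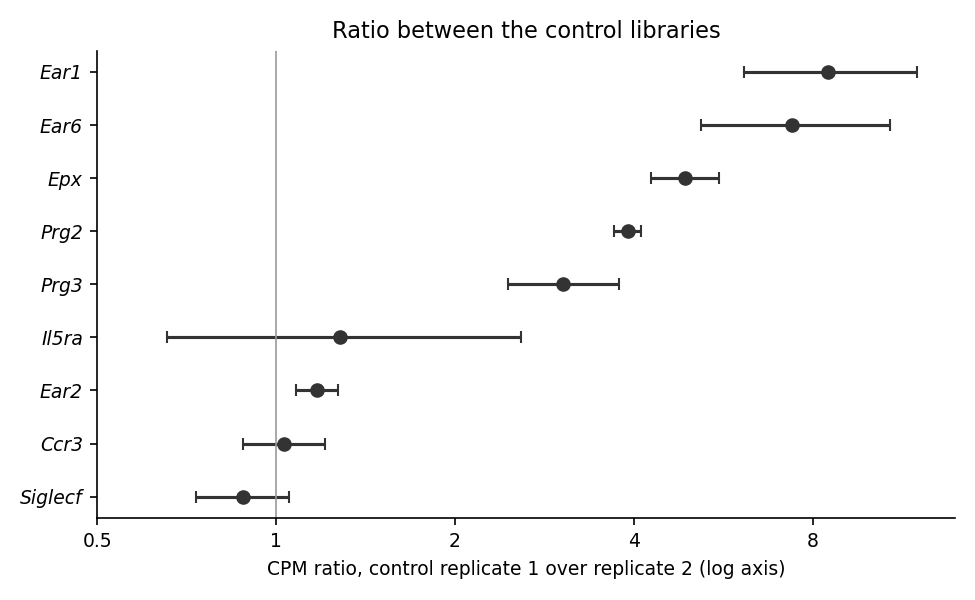
Ratio of CPM in control replicate 1 to control replicate 2 (log axis) for each gene, with 95% exact counting intervals. Epx, Prg2, Prg3, Ear1 and Ear6 lie at 3.04 to 8.49, and Ear2, Ccr3, Siglecf and Il5ra at 0.879 to 1.28.

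Read line by line, VpR83 medium went with the lowest level of every granule gene. Levels under it were 2.55% (Epx), 5.47% (Prg2), 7.85% (Prg3), 6.15% (Ear1), 1.48% (Ear2) and 5.47% (Ear6) of the control mean. VpR99 had the highest Epx, Prg2, Ear1 and Ear6 of the conditioned libraries, with 21.9%, 24.8%, 18.6% and 39.5% of the control mean, and VpR126 the highest Prg3, Ear2, Ccr3 and Il5ra. From the lowest line to the highest, the level spanned 8.57-fold for Epx, 4.53-fold for Prg2, 3.83-fold for Prg3, 3.03-fold for Ear1, 6.13-fold for Ear2 and 7.22-fold for Ear6. These are single libraries, so the spread between lines has no replicate check.

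Ccr3 shared its highest line, VpR126, with Prg3 and Ear2 but not with the other granule genes. Its lowest line was VpR2020, while every granule gene was lowest under VpR83. Those Ccr3 levels rested on 6 counts under VpR2020 and 11 under VpR83. Ccr3 reached 34.4% of the control mean under VpR126 medium, 8.21% under VpR99, 3.19% under VpR83 and 2.63% under VpR2020. VpR2020 thus had a Ccr3 level near that of VpR83, with counting intervals of 0.122 to 0.722 and 0.201 to 0.721 CPM, while its Prg2 was 29.5 CPM against 10.3 under VpR83. Siglecf ran the other way, with its highest level under VpR83 medium (152% of the control mean) and its lowest under VpR126 (61.9%).

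Against both controls at once, 8 of 9 genes were lower under VpR83, 7 under VpR99, 8 under VpR126 and 7 under VpR2020 medium, where 47.6%, 45.7%, 47.2% and 47.9% of all genes tested were. Against control replicate 1 alone the log2 ratio of Epx was -6.02, -2.92, -4.14 and -3.96 under the media of VpR83, VpR99, VpR126 and VpR2020. Against control replicate 2 alone it was -3.74, -0.64, -1.85 and -1.68. For Ear2 the corresponding ratios were -6.19, -4.07, -3.57 and -3.82 against replicate 1 and -5.96, -3.85, -3.35 and -3.59 against replicate 2, so either control gave much the same reading.

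**Figure D4:**
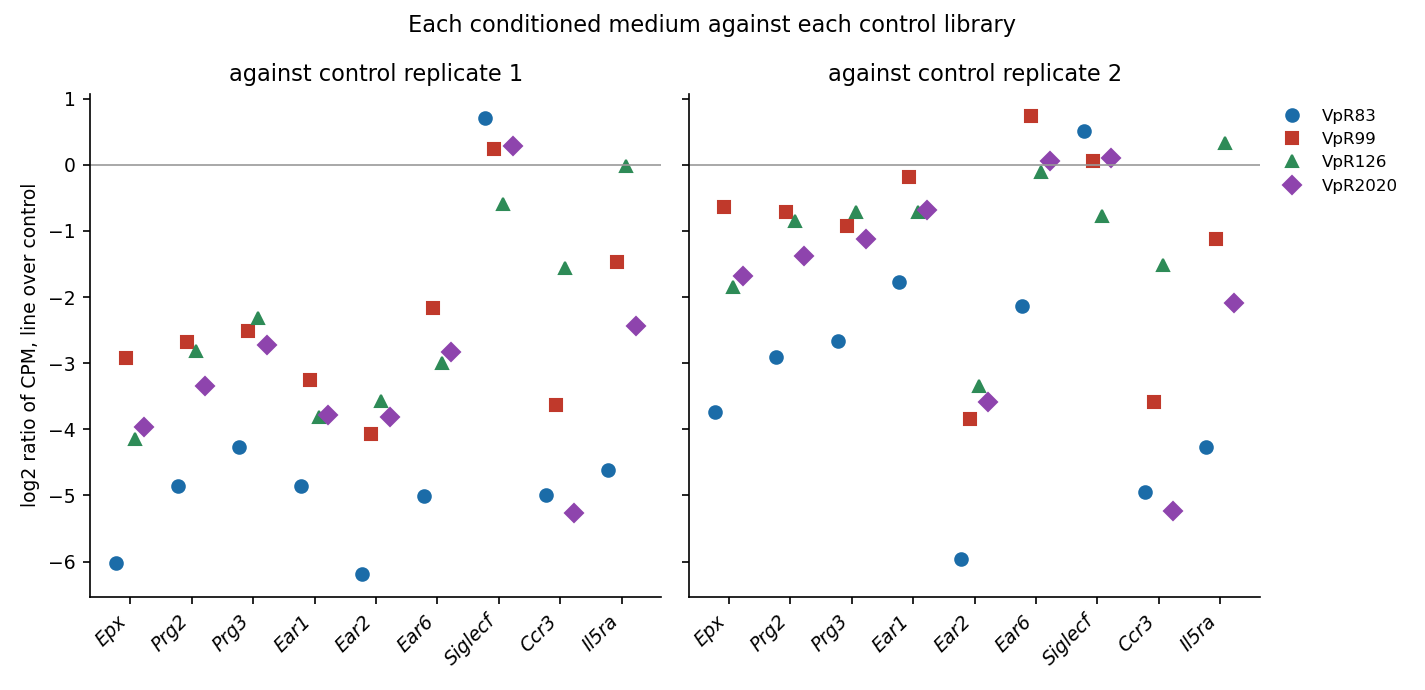
Log2 ratio of CPM of each conditioned library to control replicate 1 (left) and control replicate 2 (right) for the 9 genes, 1 marker per line. Under VpR83 medium (circles) every granule gene was lowest, Ccr3 was highest under VpR126 (triangles), and the ratios of Epx, Prg2, Prg3, Ear1 and Ear6 lie nearer 0 in the right panel.

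The make-up of the Ear counts also differed between libraries. Of the Ear1, Ear2 and Ear6 counts together, Ear2 took 43.2% under VpR83 (19 of 44 counts, exact binomial 95% interval 28.3 to 59.0), 41.2% under VpR99 (38.0 to 44.5), 62.0% under VpR126 (54.0 to 69.4) and 56.0% under VpR2020 medium (46.5 to 65.2). The share was 64.7% (62.7 to 66.6) in control replicate 1 and 92.6% (90.8 to 94.1) in replicate 2. Control replicate 2 therefore held almost only Ear2, and control replicate 1 resembled VpR126 in this respect. Ear1 took 34.1%, 22.7%, 16.6% and 18.1% under the media of VpR83, VpR99, VpR126 and VpR2020, against 20.3% and 4.01% in the controls.

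**Figure D5:**
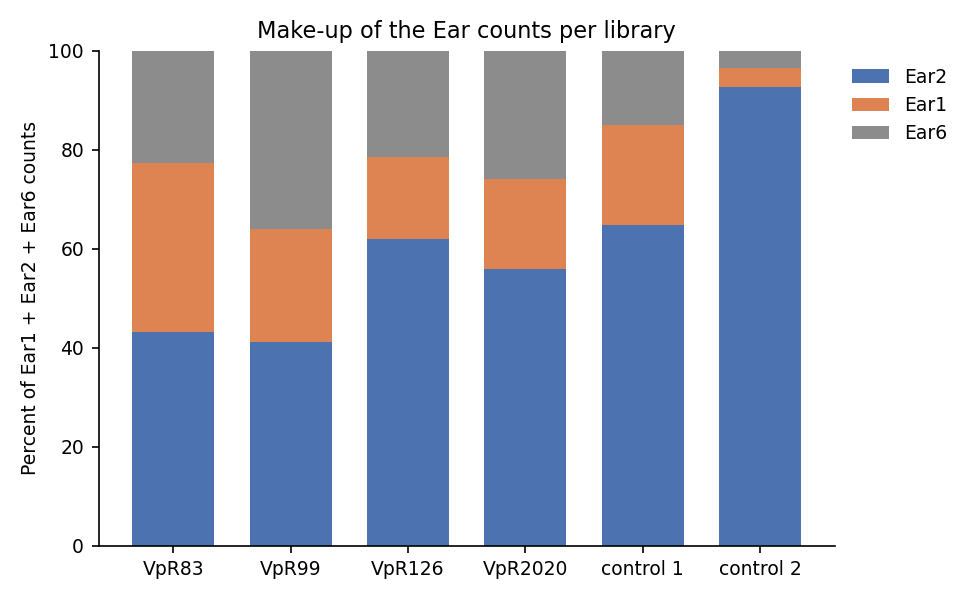
Share of the summed Ear1, Ear2 and Ear6 counts taken by each gene (percent, stacked bars, 1 per library, conditioned media on the left). Ear2 makes up 41.2% to 62.0% in the conditioned libraries, and 64.7% and 92.6% in control replicates 1 and 2.

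Per kilobase of exon, Prg2 was the most abundant of the 9 transcripts in all 6 libraries and Il5ra the least. Prg2 had 12.3, 55.6, 50.9 and 35.2 CPM per kilobase under the media of VpR83, VpR99, VpR126 and VpR2020, against 357 and 91.5 in the controls. Il5ra had 0.0102 to 0.248 CPM per kilobase in conditioned medium and 0.252 and 0.197 in control medium. Ear2 had rank 2 in every library except VpR83, where it had rank 3 with 0.967 CPM per kilobase behind Siglecf with 5.31. Siglecf had ranks 2 to 4 in conditioned medium, but ranks 8 and 6 in control replicates 1 and 2. Neighbours in the middle of the order were close, such as Epx, Prg3 and Ear6 under VpR99 medium with 2.86, 2.84 and 2.80 CPM per kilobase.

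The genes whose profiles over the 6 libraries were nearest to that of Epx were found by the root mean square difference of centred log2 CPM (prior count 2). Among the members Prg2 was nearest (0.47), followed by Ear1 (0.61), Ear6 (0.66), Prg3 (0.68), Ear2 (0.96), Il5ra (1.22), Ccr3 (1.40) and Siglecf (1.99). Outside the 9, the nearest were Igkv12-98 (0.43), Mei4 (0.48), Ighv1-4 (0.54), G0s2 (0.58), Gpr137c (0.58), Cyp11a1 (0.62), Snai1 (0.62) and Ighv1-15 (0.65). Of these, Igkv12-98, Mei4 and Ighv1-4 rest on 78, 101 and 71 counts over all libraries, and Ighv1-15, Gpr137c and Snai1 on 163, 211 and 257. Cyp11a1 had 904 counts and G0s2 4989. G0s2, an inhibitor of triglyceride lipase, had 2.93, 7.02, 4.98 and 6.58 CPM under the media of VpR83, VpR99, VpR126 and VpR2020, against 104 and 32.8 CPM in control replicates 1 and 2.

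Of 12 transcription factor and regulator genes of the eosinophil lineage, 3 were called higher, 3 lower and 6 not called, shares near the 22.5% and 19.7% of all genes, with a median log2 fold change of -0.07. By upper-quartile scaling or library totals 2 were called higher and 5 lower. Gata2 fell by 3.80 on the log2 scale (SE 0.74, edgeR adjusted p = 0.0089), and the GATA cofactor gene Zfpm1 (-2.84) and Cebpe, the granulocyte C/EBP gene needed for granule formation (-2.81), were lower too. Gata1, the factor that commits cells to the eosinophil lineage and is shared with erythroid cells, had 0, 0.413, 10.6 and 0.498 CPM under the media of VpR83, VpR99, VpR126 and VpR2020, against 77.5 and 77.8 CPM in the controls. Its log2 fold change of -4.79 ± 1.61 was not called (adjusted p = 0.053, range 0.0016 to 0.20). Gata1 was highest in VpR126 among the conditioned libraries, as were Ccr3 and Il5ra. Cebpa, Xbp1 and Runx1 rose by 1.03, 0.81 and 0.78. Trib1 was not called (-1.82, adjusted p = 0.057). Without either control 0 of the 12 were called higher, and without VpR126 5 were called lower, Gata1 among them (-7.90, adjusted p = 0.0016). Gata2 missed the threshold without control replicate 1 (adjusted p = 0.058).

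Of the interleukin 5 receptor family and its signalling genes, 12 of 15 were tested and 3 rose, 0 fell and 9 were not called (median 0.54). By upper-quartile scaling or library totals 2 were called higher and 2 lower, and DESeq2 also called 2 lower. Unlike Il5ra, the genes of the beta chains were higher in conditioned medium. Csf2rb2 had 291, 474, 623 and 439 CPM under the media of VpR83, VpR99, VpR126 and VpR2020, against 32.9 and 34.2 CPM in the controls (3.77 ± 0.36, edgeR adjusted p = 0.0010), and Csf2rb rose by 2.37 ± 0.37. The chain of Csf2rb is shared by the receptors for interleukin 5, interleukin 3 and GM-CSF, and that of Csf2rb2 serves interleukin 3 in mice, and other myeloid cells carry both. Jak1 rose by 0.64. The ligand genes were scarcely counted: Il5 had 1, 2, 0 and 0 counts under the media of VpR83, VpR99, VpR126 and VpR2020 and 0 in both controls, Il3 had 0 counts in all 6 libraries, and Csf2 had 2 counts under VpR99 medium and 1 in each control. Without counts, these genes were not detectable at depths at which 3 counts are 0.0232 to 0.155 CPM of the library total in conditioned medium and 0.109 and 0.161 CPM in control medium.

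Chemokine ligands of CCR3 were 4 tested of 6, with 2 called higher, Ccl7 (9.60 ± 1.63, edgeR adjusted p = 0.0056) and Ccl24 (6.32 ± 1.83, adjusted p = 0.033). Their median was 5.73, and without control replicate 1 or 2 the calls were 1 and 0. Ccl24, an eotaxin, had 1.17, 3.79, 19.1 and 40.2 CPM under the media of VpR83, VpR99, VpR126 and VpR2020, against 0.167 and 0.235 CPM in the controls, where it rested on 5 counts each. Ccl11, the other mouse eotaxin, had 2, 5, 0 and 0 counts under those media and 0 in the controls. Ccl7 had 15 counts and 1 count in control replicates 1 and 2, so its fold stands over a level near 0. Ccl8 was not called (adjusted p = 0.091). Ccl5 had 2.49, 3.49, 137 and 3.43 CPM under the media of VpR83, VpR99, VpR126 and VpR2020, against 19.6 and 15.3 CPM in the controls. It was not called with all libraries (1.07, adjusted p = 0.65) but was called lower without VpR126 (-2.46, adjusted p = 0.0017).

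Other genes of eosinophils moved both ways, with 4 of 11 tested higher, 4 lower and 3 not called (median 0.31). Of the higher calls 0 stood without either control and 2 without VpR83. Il1rl1, the interleukin 33 receptor gene, fell by 3.48 on the log2 scale (SE 0.27, edgeR adjusted p = 0.00065), the lipoxygenase gene Alox15 by 2.93 (SE 0.77, adjusted p = 0.024), and the surface antigen gene Cd24a was lower too (-2.85). Alox15 had 0.256, 0.827, 2.66 and 1.27 CPM under the media of VpR83, VpR99, VpR126 and VpR2020, against 12.2 and 6.67 CPM in the controls. Ltc4s, Ccl6 and Il4 rose by 5.62, 2.57 and 2.26, but Ltc4s rested on 5 counts and 1 count in the controls. Il13 had 0 counts in every conditioned library, against 14 and 2 counts in the controls, too few to be tested.

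Relatives of the members outside the 9 also differed in direction. In the RNase A family, 4 of 7 were tested, Rnase4 and Ang rose (4.55 ± 0.91 and 3.10 ± 0.79, edgeR adjusted p = 0.0099 and 0.022), and Rnase2b and Rnase6 fell (-2.52 and -1.26), with a median of 0.92, though 0 of these calls stood without either control, and 1 lower call without VpR99 or VpR2020. In the Siglec family, 6 of 7 were tested with a median of -1.23. Siglec1, the macrophage sialoadhesin gene, rose by 5.90 ± 0.69 (adjusted p = 0.0017), and Siglech of plasmacytoid dendritic cells, Siglecg of B cells and Siglece of neutrophils and monocytes were lower (-4.82, -2.51 and -1.75; 1 lower call without control replicate 2). Siglecf itself lay between these extremes.

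Markers of other cell types moved strongly in the same libraries. The basophil and mast cell genes were all lower, 8 of 8 tested of 11, with a median of -3.55 and a summed level of 18.0 to 98.8 CPM in conditioned medium and 792 to 870.0 CPM in control medium. Without control replicate 1 or 2 the calls were 3 and 2. Hdc, Fcer1a and the basophil protease gene Mcpt8 were lower (-4.12, -4.44 and -5.20), Mcpt8 with 0.329, 4.69, 8.62 and 2.16 CPM under the media of VpR83, VpR99, VpR126 and VpR2020, against 145 and 146 CPM in the controls. Fcer1a was at 0 counts under VpR83 medium, the mast cell gene Cma1 was at 0 in every conditioned library, and Mcpt4 in all 6 libraries. The summed basophil level was lowest in VpR83, as were the granule genes, and highest in VpR126 (98.8 CPM). The part of basophils in the Prg2 and Ccr3 results was not tested.

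Of 12 neutrophil genes 7 fell, 0 rose and 5 were not called (median -2.90), with Camp, Retnlg and Ltf at -5.95, -4.13 and -3.85, and a summed level of 3570.3 to 18177 CPM in conditioned medium and 84047 to 91737 CPM in control medium, and 4 lower calls without control replicate 1. All 10 macrophage genes rose (median 4.62), C1qb, Trem2 and Mrc1 by 5.54, 5.27 and 5.10, with a sum of 19198 to 48389 CPM in conditioned medium and 8161 to 8936 CPM in control medium. By upper-quartile scaling, or without VpR2020, 9 of the 10 were called higher. Of 8 genes of alveolar macrophages, a type that carries Siglecf, 7 were tested, 4 rose and 1 fell (median 2.78). The sum was 1371 to 2788 CPM in conditioned medium and 2986 to 3646 CPM in control medium. Chil3 alone had 3565 and 2921 CPM in control replicates 1 and 2, so the control sums were mostly that gene. Marco, Fabp5 and Cd36 rose by 8.12, 5.14 and 4.48, Chil3 was lower (-2.65), and Car4 had 14 counts under VpR99 medium, 1 in control replicate 1 and 0 elsewhere. Without control replicate 1 or 2, 2 and 1 of these genes were called higher and 0 lower. Siglecf was lowest in VpR126, where macrophage genes differed. Among the conditioned libraries, Marco, Cd36 and Adgre1 were highest there, while Fabp5 (802 CPM) and Mrc1 (1172 CPM) were lowest there. The part of macrophages in the Siglecf level was not tested.

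Epithelial genes, listed for carried-over tumour cells, stayed low, with 2 of 4 tested (of 6) called lower, Krt18 and Pax8 (-4.63 and -2.62), and a median of -2.32, with 1 call without either control. Their sum was 3.54 to 17.9 CPM in conditioned medium and 18.8 to 21.4 CPM in control medium. Krt8 and Krt19 had 0 counts in every conditioned library.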

How the data were processed

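The authors deposited whole-number counts of reads for 45706 Ensembl genes without normalization, in 6 columns matched to samples by name. The submitters' processing notes name Trimmomatic 0.38, STAR 2.5.2b and GRCm38. Libraries were stranded TruSeq from total RNA, per the labels' protocols. The sources used here name no counting tool, strand setting or annotation version. Symbols and coordinates came from GENCODE M21, a GRCm38 annotation, which matched 45143 identifiers (the others held 0.0538% to 0.0828% of counts).

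Tests used edgeR 4.0.16 under R 4.3.3 (default filterByExpr, TMM, two-sided robust quasi-likelihood test with medium as its single term), with adjustment by Benjamini-Hochberg across the 15141 genes tested and a threshold of 0.05. SE is the log2 fold change divided by the root of the F statistic. The script was tested on simulated counts. Alternatives were RLE, upper-quartile and no scaling, no filter, DESeq2 1.42.0, voom of limma 3.58.1, leaving out each library, thinning VpR99 and summing Ear rows. Counting intervals (Poisson, binomial) are exact, at 95%, and cover counting error only. With a lone control, that library is assumed to vary like the others. Genes named from each of 11 further lists were the called ones with the largest change, at most 3 per direction, and others chosen after their values were seen. The members and lists were chosen with earlier results of these data known. No library pair agreed within sampling noise (lowest chi-square per degree of freedom 27.9, the controls).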

Additional observations from a re-analysis of the deposited data

Results flagged for a closer look

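Among the 4 conditioned libraries, a single library stood apart by Dixon's criterion (a ratio above 0.829) for 14 of the 99 genes examined, which were the 9 eosinophil genes and the 90 tested genes of the other lists. None of the 14 was among the 9, though Ccr3 had 4.35 CPM under VpR126 medium where the next library had 1.04. Chance gives about 1 in 20 for independent, normally distributed values. CPM of genes from the same 4 libraries need not be either, so the 14 cannot be set against that share. Under VpR126 medium, Gata1 had 10.6 CPM where the next library had 0.498, Zfpm1 27.2 where the next had 12.0, Trib1 75.1 where the next had 39.2 and Ccl5 137 where the next had 3.49. In the same library Itga4 had 455 CPM (next 235), Siglech 4.22 (next 1.17), Marco 512 (next 52.0) and Cd36 733 (next 282). Under VpR99 medium, the azurophil granule genes of neutrophil precursors stood apart, with Mpo at 831 CPM (next 203), Elane at 587 (next 109), Prtn3 at 658 (next 175) and Ctsg at 305 (next 49.6). Ccl7 had 613 CPM (next 157) and Pax8 0.454 (next 0.127) in that library.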

How the results depend on the processing

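Of the 9 genes, 6 were called lower in the fit of all libraries, 3 without a low-count filter (Prg3, Ear1 and Ear2), 5 by voom, 7 by DESeq2 and 1 to 6 when a library was left out. The count of 1 (Ear2) came without control replicate 1 and without VpR2020, where the adjusted p of Epx, Prg2, Prg3, Ear1 and Ccr3 were 0.059 to 0.072. No setting called a gene of the 9 higher. Siglecf changed sign without VpR83 (-0.06) and when scaled by library totals (-0.10) or upper quartile (-0.08), and was not called in any setting, with values of -0.06 to 0.34 when a library was left out. With a library left out, 1283 to 3657 genes were called higher and 918 to 3374 lower over all genes, and 11 to 30 and 15 to 35 over the genes of the other lists. The low ends came from leaving out a control. All other counts over the 9 genes, all genes and all lists together stayed within 1.5 times. The causes were not tested. No paired analysis was possible because the conditioned libraries carry no replicate numbers. Precision is limited by counts of Il5ra (1 to 40 per library), Ccr3 under VpR2020 medium (6) and Ear6 under VpR83 medium (10).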
